A study of Drosophila melanogaster with 6 samples.

Results

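The genes of the cytoplasmic ribosomal proteins were compared between SIN3 187HA cells and S2 cells. S2 is a *Drosophila* line derived from late embryos, and SIN3 187HA cells are a stable line made from it that carries a transgene for an HA-tagged, shorter isoform of the corepressor SIN3. The members were taken by name. A row of the gene table was included when one of its symbols began with *RpL*, *RpLP* or *RpS* and a number, or was *sta*, *sop* or *oho23B*, and *RpS3A* and rows of chromosome 4 were left out. This gave 92 of 14540 rows, of which 54 belong to the large and 38 to the small subunit. Of the 3 extra names only *sta* occurred as a symbol, while the genes once called *sop* and *oho23B* stood under *RpS2* and *RpS21*.

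The transgene is driven by a metallothionein promoter, which copper switches on, and both SIN3 187HA cells and S2 cells received CuSO4. The sample labels give 0.07 µM and 48 h for replicate 1 of each group, whereas the unit of the dose differs in the study's methods, and the genotype of all 6 samples is given as wild type. Total RNA was extracted from 3 biological replicates per group, mRNA purified from it was sequenced, and the authors deposited their 3 replicates as 1 combined FPKM (fragments scaled for transcript length and sequencing depth) per gene and group. The spread between replicates can therefore not be computed from these values, and as the authors' own p-values and q-values were not used, no difference below has a replicate check or a test. The study reports that its stable lines were grown with Geneticin, penicillin and streptomycin, and S2 cells with gentamycin. It also reports that the longer SIN3 isoform, the main one in S2 cells, was almost absent from SIN3 187HA cells. The transgene, this loss, the antibiotics and the making of a stable line go together in SIN3 187HA cells and cannot be told apart.

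A ribosome is built from a small subunit, which reads the mRNA, and a large subunit, which joins amino acids. Each cytoplasmic ribosome holds 1 copy of nearly every ribosomal protein, so cells make these proteins in similar amounts, and the mRNAs are among the most abundant of a growing cell. In *Drosophila*, loss of 1 copy of many of these genes gives the *Minute* phenotype of slow growth and short bristles. Some proteins are encoded by a pair of genes, of which one copy often serves most tissues and the other the germline. Mitochondria have ribosomes of their own, made of different proteins.

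*Sin3A*, the overexpressed gene, had 2319 FPKM in SIN3 187HA cells and 56.9 FPKM in S2 cells, a log2 difference of 5.33. Of 10 markers of hemocytes, the blood cells that S2 resembles, 9 passed the filter on level described below. Of these, *Pvr* and the row of *ush* were higher in SIN3 187HA cells by at least 2-fold, and *Pxn*, *NimC1*, *eater*, *He* and *Sr-CI* were lower, where 10.9% of all compared rows passed this fold in each direction. *He* had 72.7 FPKM in SIN3 187HA cells against 766 FPKM in S2 cells, while the hemocyte factor *srp* had 77.0 and 86.9 FPKM. *Hml* was near 0 in both, at 0.676 and 0.520 FPKM. Of 5 neural markers 3 were below 0.4 FPKM in both lines, while *elav* had 6.74 and 2.39 FPKM and *brp* 3.06 and 0.0647 FPKM. The part of these markers in the differences below was not tested. Summed FPKM over all rows was 791598.5 in SIN3 187HA cells and 810834.1 in S2 cells, after 3 rows whose level the authors' tool could not estimate were left out.

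The main copies of the ribosomal protein genes were among the most abundant mRNAs in both lines. There were 78 main copies, 47 of the large and 31 of the small subunit, and 14 second-named paralogs such as *RpS5b* or *RpL24-like*. Second-named means named second in a pair set by hand, which does not follow the letters of the symbols. *RpL34b* is thus a main copy and *RpL34a* its second-named paralog. The main copies had a median of 3594 FPKM in SIN3 187HA cells and 2844 FPKM in S2 cells. Among all rows of the table, 71 main copies in SIN3 187HA cells and 68 in S2 cells were in the top 100, and all 78 were in the top 500 of each line.

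The mRNA levels were less even than the proteins' equal numbers in the ribosome. The highest main copy was *RpL41*, which encodes the smallest ribosomal protein with 25 residues, at 15232 FPKM in SIN3 187HA cells and 15796 FPKM in S2 cells. *RpL5*, whose product carries the 5S rRNA into the large subunit, had 11875 FPKM in SIN3 187HA cells and 11288 FPKM in S2 cells. *RpL39*, with 51 residues, had 10861 and 9622 FPKM. FPKM of transcripts as short as those of *RpL41* and *RpL39* rests on a large length correction and is less certain. The lowest main copy was *RpL34b* in SIN3 187HA cells, at 989 FPKM, and *RpL22* in S2 cells, at 594 FPKM. The highest level was 15.4 times the lowest in SIN3 187HA cells and 26.6 times in S2 cells, and the SD of log2 FPKM over main copies was 0.76 in SIN3 187HA cells and 0.87 in S2 cells.

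**Figure D1:**
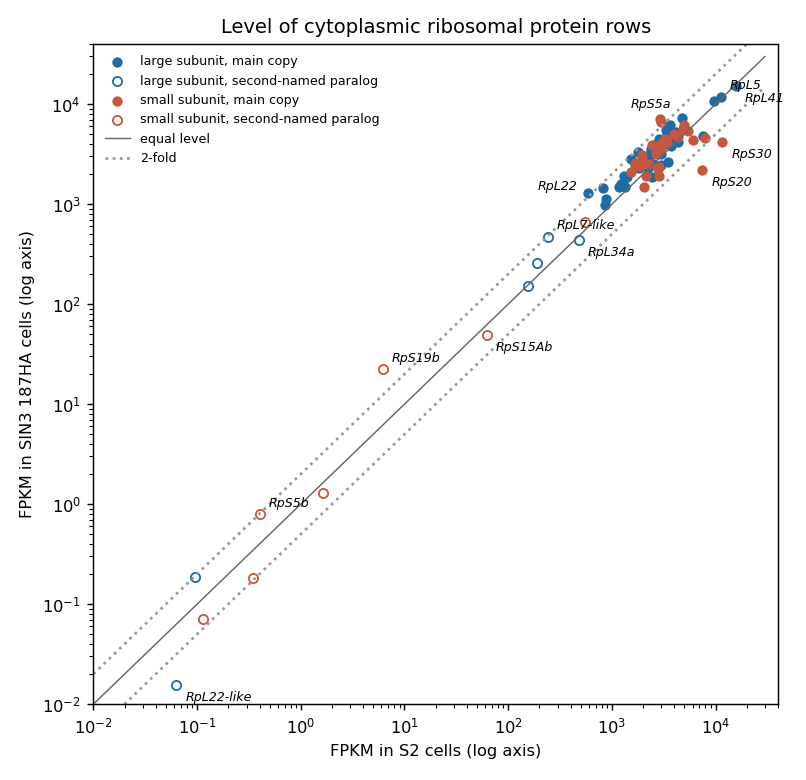
FPKM of each ribosomal protein row in SIN3 187HA cells (vertical log axis) against S2 cells (horizontal log axis); filled points are main copies, open points second-named paralogs, and dotted lines mark a 2-fold difference. The main copies lie together between 594 and 15796 FPKM, while the paralogs spread from 667 FPKM down to 0.0156 FPKM. *RpL10Aa*, listed at 0 in both lines, is not drawn.

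Most cytoplasmic ribosomal protein genes were slightly higher in SIN3 187HA cells than in S2 cells. The difference was taken as log2 of the FPKM plus 1 in SIN3 187HA cells over the same in S2 cells, for rows with a mean FPKM of at least 1. Of the 92 members, 86 passed this filter, 51 of the large and 35 of the small subunit. Their median log2 difference was 0.35, with quartiles at 0.04 and 0.52, and 67 of 86 (77.9%) were above 0. Over all 8200 rows compared, the median was -0.04, the quartiles were -0.46 and 0.42, and 47.5% were above 0. FPKM came from whole cultures, so a different level in each cell and a different share of cells at that level cannot be told apart.

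Few members differed by 2-fold or more. At least 2-fold, 4 of the 86 were higher in SIN3 187HA cells (10.9% of all compared rows were) and 2 were lower (10.9% of all compared rows were). At 1.5-fold, 18 of 86 members were higher, a share like the 19.7% of all rows. Only 5 were lower, a smaller share than the 19.9% of all rows, which left 63 of 86 within 1.5-fold. The excess of members above 0 thus came with few large differences. A spread narrower than that of all rows was not particular to the members, whose quartiles were 0.04 and 0.52. The quartiles were -0.54 and -0.07 for mitochondrial ribosomal proteins and -0.25 and 0.20 for translation factors. Members summed to 38.3% of all FPKM in SIN3 187HA cells and 33.0% in S2 cells, a share large enough that the scaling of the table bears on the difference. When each line was scaled to its sum over the other rows, the median of all compared rows moved by 0.14 to 0.11 and that of the members to 0.50, with 71 of 86 above 0 and 7 rather than 4 members higher by 2-fold.

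**Figure D2:**
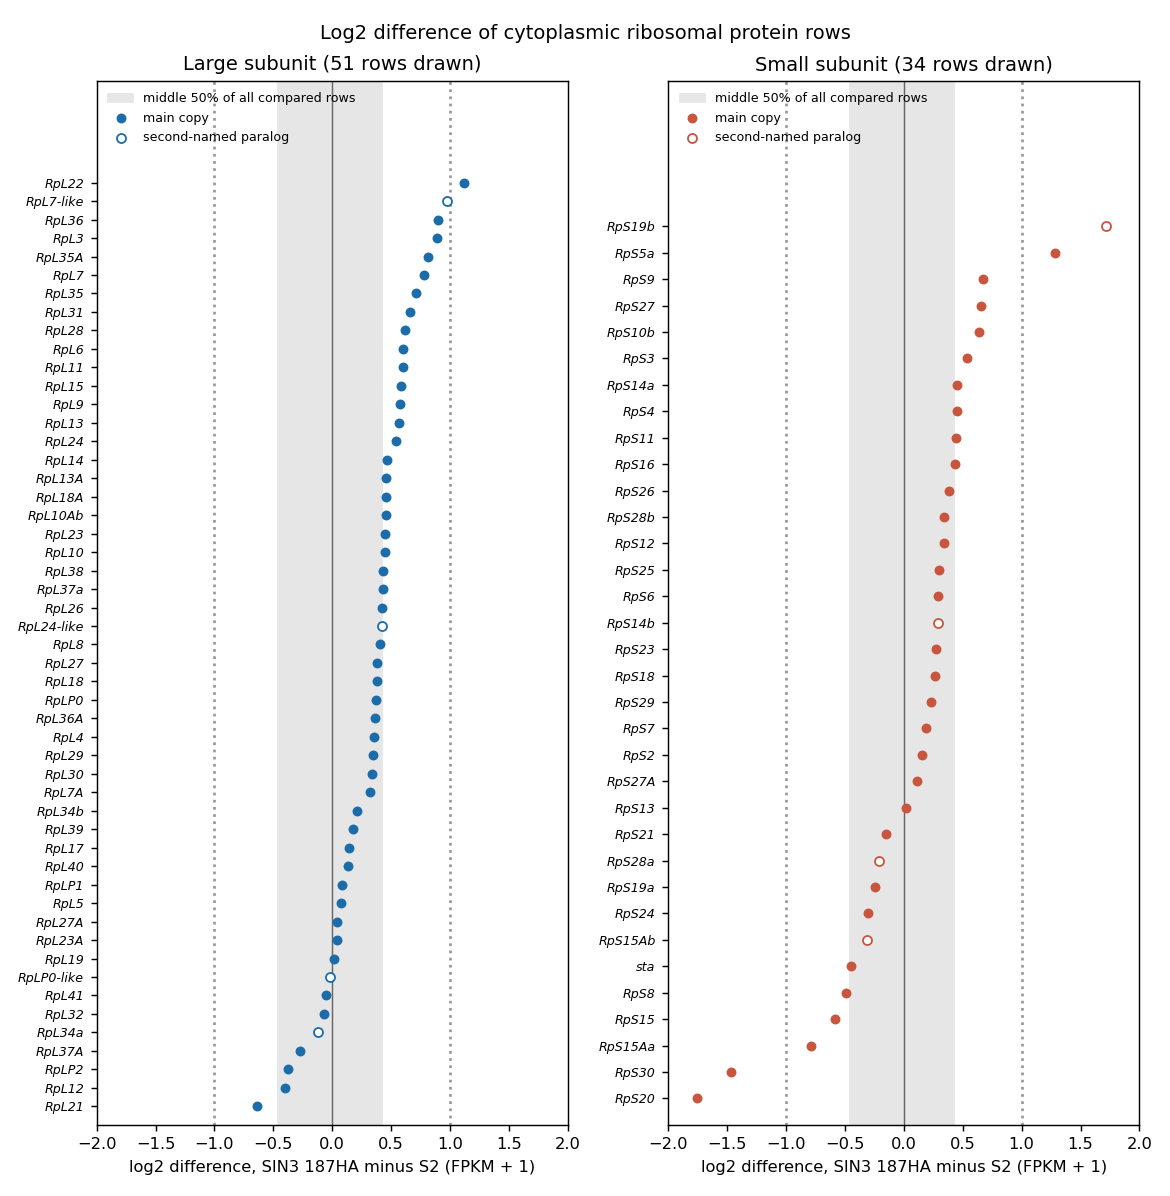
Log2 difference (SIN3 187HA minus S2, FPKM + 1) of the 51 large and 34 of the 35 small subunit rows compared, in order of size; filled points are main copies, open points second-named paralogs, the grey band spans the quartiles of all 8200 compared rows and dotted lines mark 2-fold. In the large subunit 43 of 51 points lie to the right of 0, and in the small subunit most do, with *RpS20* and *RpS30* far to the left.

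Genes of the large subunit were above 0 in 43 of 51 rows, with a median log2 difference of 0.41 and quartiles at 0.11 and 0.57. Genes of the small subunit were above 0 in 24 of 35 rows, with a median of 0.28 and quartiles at -0.23 and 0.45. The medians differed by 0.13, which is small beside the range within either subunit, from -0.64 to 1.11 in the large and from -1.76 to 1.72 in the small subunit. With rows of 1 symbol only, it was 0.0857. Among main copies alone, 41 of 47 large and 22 of 31 small subunit genes were above 0, with the same medians. The large subunit made up 23.3% of summed FPKM in SIN3 187HA cells and 18.8% in S2 cells, and the small subunit 14.9% and 14.2%. The sum over large subunit rows was 1.56 times that over small subunit rows in SIN3 187HA cells and 1.33 times in S2 cells. Without *RpS20* and *RpS30* the ratio was 1.65 in SIN3 187HA cells and 1.59 in S2 cells, so most of its difference between the lines rested on those 2 genes.

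In the small subunit the lowest values relative to S2 cells were those of *RpS20* and *RpS30*. *RpS20*, whose product sits in the head of the small subunit, had 2205 FPKM in SIN3 187HA cells and 7469 FPKM in S2 cells, a log2 difference of -1.76. Among all rows it ranked 80 in SIN3 187HA cells and 10 in S2 cells. *RpS30*, made as a fusion with a ubiquitin-like protein, had 4201 FPKM in SIN3 187HA cells and 11623 FPKM in S2 cells, a log2 difference of -1.47. Both lie on 3R of dm3, *RpS20* from 16647903 to 16649961 and *RpS30* from 16676313 to 16677149. In SIN3 187HA cells *RpS30* was above and *RpS20* below the median main copy, while in S2 cells both were among the highest ribosomal protein mRNAs. *RpS15Aa* followed with 4623 FPKM in SIN3 187HA cells and 7997 FPKM in S2 cells (-0.79), and *RpS15* with 1893 and 2841 FPKM (-0.59).

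On the other side, *RpS5a* was the main copy with the largest positive difference. The gene, whose product lies near the path by which mRNA leaves the small subunit, had 7079 FPKM in SIN3 187HA cells and 2910 FPKM in S2 cells, a log2 difference of 1.28. The gene lies on X of dm3, from 17037620 to 17042287. The BDGP6 annotation places 14 snoRNAs inside it, more than in any other member. Among all rows *RpS5a* ranked 7 in SIN3 187HA cells, against 44 in S2 cells, where it was near the median of main copies. *RpS6*, the small subunit protein that S6 kinase phosphorylates, had 3655 FPKM in SIN3 187HA cells and 2987 FPKM in S2 cells (0.29), in a row that also holds a snoRNA. *sta*, the *Drosophila* form of the small subunit protein SA, was lower, with 1485 and 2022 FPKM (-0.44).

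In the large subunit only *RpL22* passed 2-fold. Its row, on X from 656593 to 659172 and shared with *CR42491*, had 1288 FPKM in SIN3 187HA cells and 594 FPKM in S2 cells, a log2 difference of 1.11. The next main copies were *RpL36*, with 3317 FPKM in SIN3 187HA cells and 1785 FPKM in S2 cells (0.89), and *RpL3*, a protein of the catalytic centre of the large subunit, with 2817 and 1525 FPKM (0.88). *RpL36* was picked out with its values in view. The lowest large subunit gene was *RpL21*, which had 4824 FPKM in SIN3 187HA cells and 7498 FPKM in S2 cells (-0.64). No large subunit gene was lower by 2-fold.

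The stalk of the large subunit, which recruits the translation factors, did not move as one. *RpLP0*, the base of the stalk, had 1127 FPKM in SIN3 187HA cells and 869 FPKM in S2 cells (0.38). Of the proteins that form its arms, *RpLP1* had 3143 and 2968 FPKM (0.08) and *RpLP2* had 1876 and 2429 FPKM (-0.37). The levels of *RpLP1* and *RpLP2* thus stood farther apart in SIN3 187HA cells. The ubiquitin fusions *RpL40* and *RpS27A*, from which the cell also obtains free ubiquitin, were nearly equal in both lines. *RpL40* had 3998 FPKM in SIN3 187HA cells and 3645 FPKM in S2 cells (0.13). *RpS27A*, in a row shared with *Ip259*, had 4691 and 4348 FPKM (0.11).

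Several member rows hold a second gene, and its fragments could not be separated from those of the ribosomal protein. Of the 11 such rows, 10 were compared, all 10 were above 0, and their median was 0.37. The 76 compared rows with 1 symbol had a median of 0.35, and 57 were above 0. Apart from the rows of *RpL22*, *RpS6*, *RpS27A* and the paralogs *RpL7-like* and *RpS28-like*, the shared rows were *RpL13A* and *RpL28* with 2 snoRNAs each, *RpS7* with 2 snoRNAs, *RpL3* with 1 snoRNA, *RpL23A* with *Uhg7*, and *RpS18* with *CG8908*. *RpL28* had 7275 FPKM in SIN3 187HA cells and 4734 FPKM in S2 cells (0.62), whereas *RpL23A* had 2284 and 2224 FPKM (0.04). *RpS7* had 5585 FPKM in SIN3 187HA cells and 4900 FPKM in S2 cells (0.19), *RpL13A* had 1827 and 1331 FPKM (0.46), and *RpS18* had 3172 and 2637 FPKM (0.27).

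The pairs were set by hand, with the main copy named first, to compare low-expressed paralogs with main copies. It is therefore no result that the second-named paralogs were lower than their main copies in both lines. The amounts by which they were lower differed by orders of magnitude. Of the 14, 8 were compared and had a median log2 difference of 0.14, beside 0.36 for the 78 main copies, and 4 of the 8 were above 0. The other 6 were under a mean of 1 FPKM. Of these, *RpL10Aa* was listed at 0 in both lines, and *RpL22-like*, which is expressed mainly in the germline, had 0.0156 FPKM in SIN3 187HA cells and 0.0630 FPKM in S2 cells. *RpS5b*, a paralog of the ovary, had 0.800 FPKM in SIN3 187HA cells and 0.403 FPKM in S2 cells, about 9.04 and 4.39 fragments per library. The remaining 3 were *RpL37b*, with 0.187 and 0.0944 FPKM, *RpS10a*, with 0.185 and 0.346 FPKM, and *RpS28-like*, in a row shared with *CG3769*, with 0.0715 and 0.114 FPKM. Depth, estimated from the lowest values, was about 15.9 M fragments per library in SIN3 187HA cells and 15.3 M in S2 cells. At this depth the levels of these 6 paralogs correspond to few fragments. Differences between the lines at such levels are uncertain and were not tested.

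*RpS19b* had the largest positive difference of all members. It had 22.6 FPKM in SIN3 187HA cells and 6.16 FPKM in S2 cells, a log2 difference of 1.72, from an estimated 166 and 43.5 fragments per library. Its main copy *RpS19a* had 2378 FPKM in SIN3 187HA cells and 2820 FPKM in S2 cells (-0.25). *RpS19b* still made up only 0.941% of the pair's FPKM in SIN3 187HA cells and 0.218% in S2 cells. *RpS19b* lies on 3R from 19758451 to 19759252, its 24 neighbouring rows had a median log2 difference of 0.20, and it is known as a germline paralog. The germline markers tested did not move together: *osk* had 4.62 and 0.615 FPKM and *bam* 3.64 and 2.07 FPKM, while *piwi* had 6.40 and 28.2 FPKM and *aub* 7.40 and 12.1 FPKM. *vas* and *nos* were near 1 FPKM or below, with 1.15 and 0.529 FPKM for *vas* and 0.773 and 1.15 FPKM for *nos*. The part of these markers in the value of *RpS19b* was not tested.

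Paralogs that contributed more had similar shares in the lines. *RpL34a* made up 30.9% of its pair with *RpL34b* in SIN3 187HA cells and 36.1% in S2 cells, from 443 and 483 FPKM. *RpS14b* made up 24.0% of its pair with *RpS14a* in SIN3 187HA cells and 26.2% in S2 cells, from 667 and 545 FPKM. The copies *RpS14a* and *RpS14b* lie 220 bases apart on X. Where paralogs are alike in sequence, which was not examined here, fragments can be divided between them in error, so these shares may be less certain than the sums. *RpS15Ab* had 49.5 FPKM in SIN3 187HA cells and 61.9 FPKM in S2 cells, and *RpS28a* had 1.28 and 1.64 FPKM. Summed over both copies, the *RpS14* pair had a log2 difference of 0.41 and the *RpL34* pair one of 0.10.

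The 3 paralogs ending in -like with the highest levels are relatives of yeast factors that help assemble the large subunit. *RpL7-like*, in a row shared with *CG34164*, had 473 FPKM in SIN3 187HA cells and 240 FPKM in S2 cells (0.97), beside 6216 and 3627 FPKM (0.78) for *RpL7*. *RpL24-like* had 256 FPKM in SIN3 187HA cells and 191 FPKM in S2 cells (0.42), beside 1921 and 1320 FPKM (0.54) for *RpL24*. *RpLP0-like* had 152 FPKM in SIN3 187HA cells and 154 FPKM in S2 cells (-0.02), beside the higher *RpLP0*. They made up between 6.21% and 15.1% of the summed FPKM of their pairs. As members were taken by name, they are counted with the large subunit and the compared paralogs. Their shares need not be those of alternative copies of 1 ribosomal protein.

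**Figure D3:**
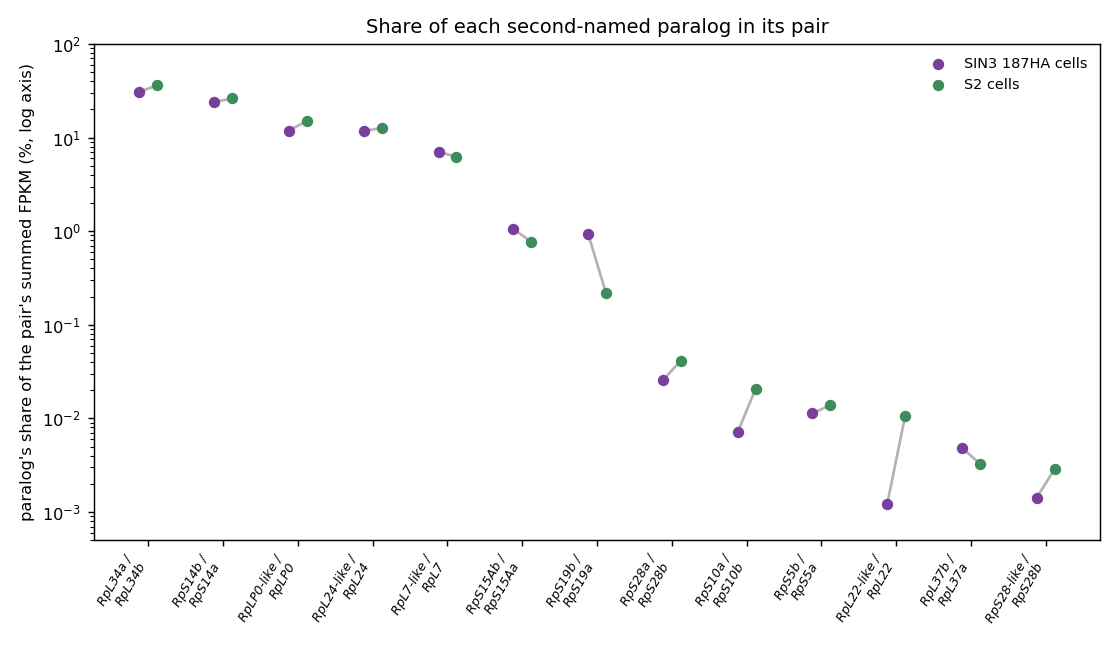
Share (percent, log axis) of each second-named paralog in the summed FPKM of the pair, in SIN3 187HA cells (left point) and S2 cells (right point) of 13 pairs. The shares run from 36.1% for *RpL34a* to 0.00121% for *RpL22-like*, and *RpS19b* stands at 0.941% in SIN3 187HA cells and 0.218% in S2 cells.

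The difference of a ribosomal protein gene went with that of the genes beside it on the chromosome. For each member the median log2 difference was taken over the 12 compared rows on each side that were no member. Across the 78 main copies the correlation with this median was r = 0.72 (Spearman's rho = 0.58), and r = 0.59 without *RpS20* and *RpS30*. It was 0.45 when the 10 main copies with the 5 lowest and 5 highest neighbour medians were left out. Within the 40 main copies with neighbour medians from -0.5 to 0 it was 0.17, and within the 25 from 0 to 0.5 it was 0.20. Over all 8182 rows with neighbours r was 0.28 (rho = 0.36). Over the 73 rows of mitochondrial ribosomal proteins it was 0.68 (rho = 0.52), so the relation was not particular to the members. Members that lie near each other share neighbours, so the points are not independent. With 6 or 25 rows on each side, r across main copies was 0.74 and 0.72.

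The largest negative differences lay in regions that were lower as a whole. The neighbours of *RpS20* had a median of -1.46, 1 of 24 was above 0 and 21 differed by at least 2-fold. Those of *RpS30*, which lies 26351 bases away and shares 16 of its neighbour rows with *RpS20*, had a median of -1.42, with 4 of 24 above 0. Around *RpS15Aa* the median was -1.08 and around *RpL21* -0.84. Relative to its neighbours *RpS20* was lower by 0.30 and *RpS30* by 0.04, whereas *RpS15Aa* was higher by 0.29 and *RpL21* by 0.20. *RpL5* shares 21 neighbour rows with *RpL21*, and its neighbours had a median of -0.71, yet the level of *RpL5* was nearly equal in both lines (0.07). The part of the surrounding region in the level of each gene was not tested.

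Among genes with large positive differences, some lay in regions that were somewhat higher and others did not. The neighbours of *RpL22* and *RpS5a* had medians of 0.59 and 0.41, so these genes were still higher than their neighbours by 0.53 and 0.87. *RpS9*, on 3L, had 3925 FPKM in SIN3 187HA cells and 2462 FPKM in S2 cells (0.67), close to its neighbours' median of 0.74. *RpL36* and its neighbours had 0.89 and 0.70. The genes farthest above their neighbours were *RpL15* in the heterochromatin of chromosome 3, by 1.35 over only 13 rows, *RpL3* by 1.17 and *RpL35* by 1.10, with neighbour medians of -0.77 for *RpL15*, -0.28 for *RpL3* and -0.39 for *RpL35*. *RpL15* had 5079 FPKM in SIN3 187HA cells and 3385 FPKM in S2 cells. The gene farthest below was *RpL12*, by 0.59, with 2664 FPKM in SIN3 187HA cells and 3510 FPKM in S2 cells. *RpS9*, *RpL15*, *RpL35* and *RpL12* were picked out with their values in view.

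After the neighbours were taken into account, the members still stood higher. Of 86 members, 72 (83.7%) were above the median of their own neighbours, against 50.3% of all 8182 rows with neighbours. Among large subunit rows 46 of 51 were above their neighbours, and among small subunit rows 26 of 35. The median distance of main copies above their neighbours was 0.34. It was 0.32 for the 9 main copies whose neighbours were below -0.5, 0.44 for 40 with neighbours between -0.5 and 0, 0.23 for 25 with neighbours between 0 and 0.5, and 0.36 for 4 with neighbours of at least 0.5. The SD over main copies was 0.50 for the log2 differences and 0.36 for the distances from the neighbours.

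**Figure D4:**
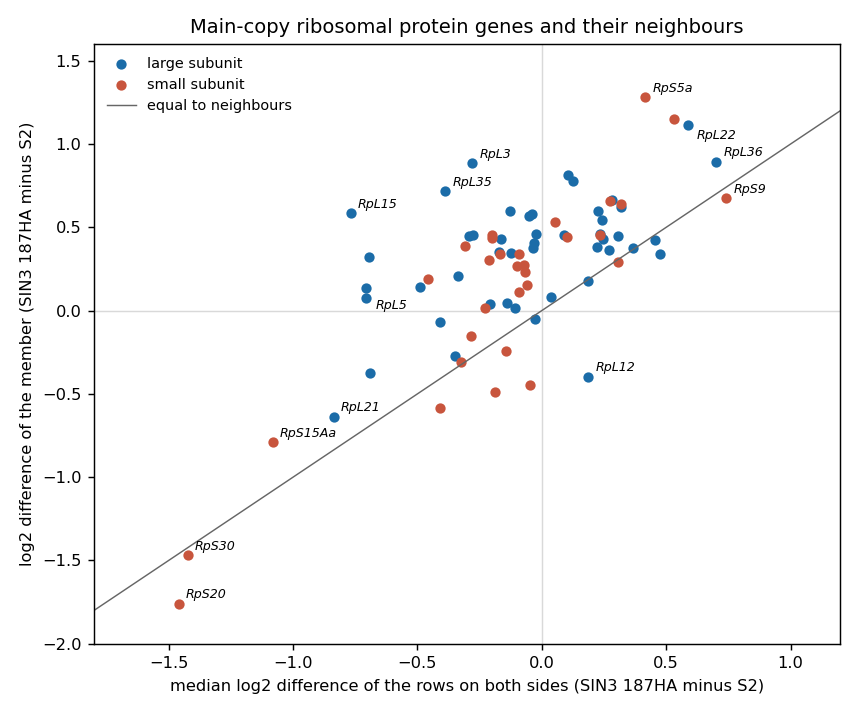
Log2 difference of each of the 78 main copies (vertical axis) against the median log2 difference of the rows on both sides (horizontal axis); blue points are large and red points small subunit genes, and the line marks equal values. Of the 78 points 65 lie above the line, and *RpS20*, *RpS30*, *RpS15Aa* and *RpL21* lie at the lower left, near the line.

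Members were above the other rows of their arm on every arm. The medians of members and of other rows were 0.34 and 0.06 on X (15 members), 0.14 and -0.11 on 2L (18 members), 0.27 and -0.07 on 2R (19 members), 0.44 and 0.07 on 3L (13 members), and 0.33 and -0.08 on 3R (20 members). On 3L all 13 members were above 0. Of 10 pairs of adjacent members less than 50 kb apart, 7 had differences of the same sign. Since 67 of 86 members were above 0, most pairs share a sign wherever they lie, so this count shows no link to position. *RpL12* and *RpL39*, 336 bases apart on 2R, had opposite signs, with -0.40 and 0.17, as did *RpS16* and *RpS24*, 32530 bases apart, with 0.44 and -0.31.

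Protein length and snoRNA content set the members apart only weakly. The proteins of the 78 main copies range from 25 to 416 residues with a median of 155. The log2 difference had r = 0.22 with protein length and r = -0.25 with the mean level, across genes that are not independent replicates. Main copies of more than 200 residues had a median of 0.44, with 21 of 23 above 0, those of more than 100 and up to 200 residues 0.34, with 35 of 45, and those of up to 100 residues 0.29, with 7 of 10. Many ribosomal protein genes carry in their introns the snoRNAs that guide modification of rRNA. The 28 main copies with an annotated snoRNA inside had a median of 0.36, with 25 above 0, and the 50 without one also had a median of 0.36, with 38 above 0.

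Other abundant mRNAs had a median below 0 on the scale of the deposited values. Among rows that were no member and no small RNA, 19 had a mean FPKM within the range of the middle 90% of main copies, from 1295 to 6551 FPKM. Of these 19 rows, 1 (5.26%) was higher by 2-fold and 2 (10.5%) were lower, beside 10.9% of all compared rows in each direction. Their median log2 difference was -0.13, 7 of 19 were above 0, and 9 of 19 were above their neighbours. Scaling to the sum over non-members moved the median of all compared rows up by 0.14, so the sign of this small median depends on the scaling. *Rack1*, a protein bound to the small subunit, had 2275 FPKM in SIN3 187HA cells and 1416 FPKM in S2 cells (0.68), with a neighbour median of 0.63. *Tctp* had 1859 and 1722 FPKM (0.11). The list of 4 ribosome-associated genes, which also holds *Nacalpha* and *bic*, had a median of 0.05, with 2 above 0.

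Mitochondrial ribosomal proteins lay on the other side of 0. Their 73 rows had a median log2 difference of -0.30, 16 were above 0, and 14 (19.2%) were above their neighbours, from which their median distance was -0.22. None was higher by 2-fold and 3 (4.11%) were lower, beside 10.9% of all compared rows in each direction. *mRpL49* had 15.2 FPKM in SIN3 187HA cells and 67.1 FPKM in S2 cells, *mRpL28* had 28.1 and 68.3 FPKM, and *mRpL10* had 22.4 and 47.3 FPKM. The mRNAs of cytoplasmic and mitochondrial ribosomes thus differed in sign at the median, by 0.35 against -0.30, a difference that could not be tested with 1 value per group.

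Genes that act with the ribosome or control its making had medians near 0. The 30 translation factor rows compared had a median of 0.01, with 15 above 0. They do not include *Ef1alpha48D*, an abundant elongation factor that was among the rows without an estimate, and which is also missing from the abundant rows above. Of these, *eIF4G*, the scaffold of cap-dependent initiation, had 103 FPKM in SIN3 187HA cells and 265 FPKM in S2 cells, and *eIF4E-6*, of the cap-binding eIF4E family, had 6.57 and 23.6 FPKM. They were the 2 factors lower by 2-fold, and none was higher by 2-fold. The 26 genes of RNA polymerase I and rRNA processing had a median of -0.07, with 10 above 0. Only *Nop56*, a core protein of the snoRNA particles that methylate rRNA, passed 2-fold, with 56.8 FPKM in SIN3 187HA cells and 177 FPKM in S2 cells, although its neighbours had a median of 0.06. Its partner *Fib*, the methyltransferase, had 207 and 156 FPKM.

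Of 18 growth control genes compared, 2 (11.1%) were higher by 2-fold, a share like the 10.9% of all compared rows, and none was lower. *path*, an amino acid transporter of the growth pathway, had 193 FPKM in SIN3 187HA cells and 22.9 FPKM in S2 cells, a log2 difference of 3.02 beside a neighbour median of 0.70. *InR*, the insulin receptor, had 25.3 FPKM in SIN3 187HA cells and 9.77 FPKM in S2 cells (1.29). *dm*, the *Drosophila* Myc gene that drives ribosome production, had 62.4 and 67.9 FPKM, and *S6k* had 59.9 and 101 FPKM (-0.75). The median of the list was -0.04. In a list of 10 factors that respond to ribosomal protein dose or act at ribosomal protein promoters, the median was -0.05, with 4 above 0. Only *Trf2*, a TBP-related factor that serves ribosomal protein promoters, passed 2-fold, which was 10% of the list, a share like the 10.9% of all compared rows. *Trf2* had 47.8 FPKM in SIN3 187HA cells and 18.2 FPKM in S2 cells (1.35), beside a neighbour median of -0.02. *Xrp1*, which responds to loss of a ribosomal protein gene copy, had 292 and 402 FPKM (-0.46).

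**Figure D5:**
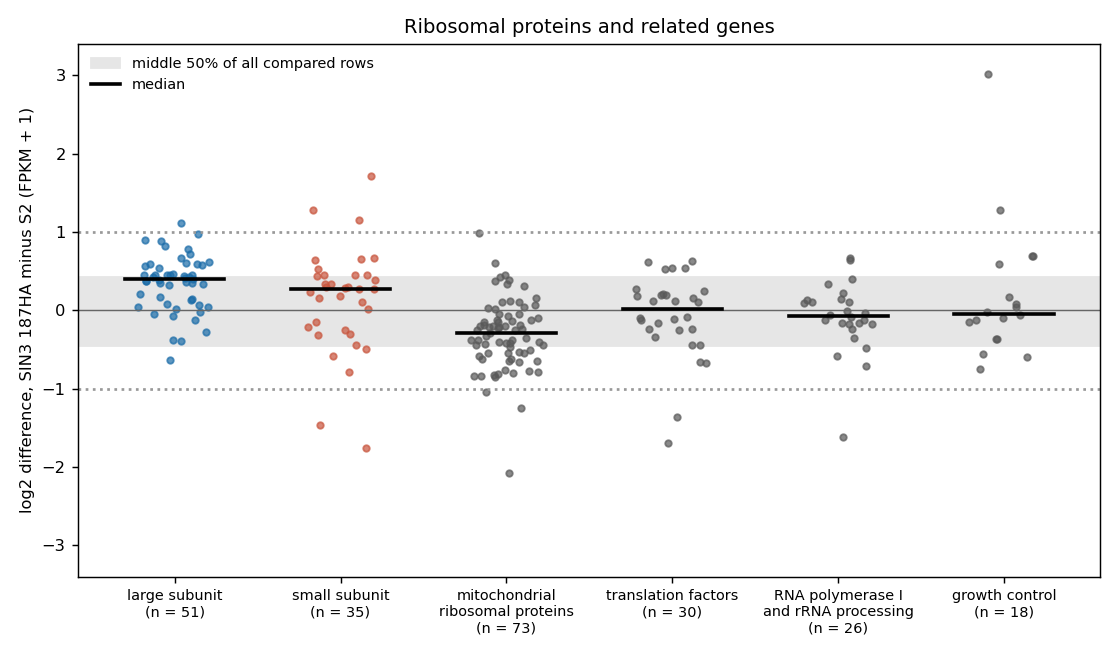
Log2 difference (SIN3 187HA minus S2, FPKM + 1) of the rows compared in 6 groups of genes; each point is 1 row, black bars are medians, the grey band spans the quartiles of all compared rows and dotted lines mark 2-fold. The medians are 0.41 for the large and 0.28 for the small subunit, -0.30 for mitochondrial ribosomal proteins, and between -0.07 and 0.01 for the other 3 groups.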

How the data were processed

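Total RNA was extracted from 3 replicates each of SIN3 187HA cells and S2 cells, mRNA was purified from it and sequenced as paired-end reads, and samples were grouped by their labels. The authors aligned the reads to dm3 with Bowtie2 and Tophat and estimated and compared levels over RefSeq genes with Cufflinks and cuffdiff. The tools' versions are not given in the sources used here. The authors deposited 1 FPKM per gene and group, scaled by cuffdiff over the combined replicates. The other deposited columns, a log2 fold change, a test score, a p-value and a q-value, hold the authors' own comparison by cuffdiff and were not used.

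Differences were computed with Python 3.11.15 and pandas 2.3.3 as log2((SIN3 187HA FPKM + 1)/(S2 FPKM + 1)) for rows with a mean of at least 1 FPKM. A fold change on this scale understates that of low genes. The 3 rows that cuffdiff marked as not estimated were left out after they were seen. Locus starts were raised by 1, since the file counts from 0, and a locus can span overlapping genes. Library preparation was not stated to mark strand, so overlapping and antisense genes cannot be told apart. Depth was estimated from the smallest FPKM steps, with a fragment length of 200 nt for counts of fragments. Protein lengths, snoRNAs inside a gene and other names came from the BDGP6 annotation and RefSeq, and all 92 members matched. Scripts were tested on simulated data.

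Named genes are the 5 largest differences in each direction, members past 2-fold, the 5 highest and 5 lowest levels, the paralog pairs, the stalk and ubiquitin fusion proteins, *RpS6*, *sta*, rows with more symbols, *Sin3A*, and genes of other lists past 2-fold. Others were chosen after their values were seen. Members and lists were chosen with earlier results of these data known. Alternatives were other pseudocounts, filters, scalings, folds and sets of rows. Promoter motifs and sequences were not analysed here. One item is not reported here, and it is included in counts and medians.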

Additional observations from a re-analysis of the deposited data

How the results depend on the processing

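No paired analysis was possible because the deposited table holds 1 combined value per group, and leaving out single replicates could not be run for the same reason. The members' median log2 difference of 0.35 became 0.39 when centred on all compared rows, 0.38 when scaled to all rows, 0.50 when scaled to non-members, 0.34 without the filter, and 0.36 with main copies only or without *RpS20* and *RpS30*. The difference between the subunits' medians became 0.12 at a mean of at least 10 FPKM or without *RpS20* and *RpS30*, 0.11 without the filter, 0.0857 with rows of 1 symbol and 0.14 without *RpS14a* and *RpS14b*. The count higher became 18 at 1.5-fold and 7 when scaled to non-members, and the count lower 5 at 1.5-fold. The share of summed FPKM in SIN3 187HA cells and S2 cells became 38.0% and 32.8% with main copies, 34.1% and 29.9% with rows of 1 symbol, and 41.8% and 35.6% without rows of small RNAs. With the rows of failed estimates kept, it became 32.8% in S2 cells. As a percentage of the sum over non-members it was 62.0% and 49.3%. None of these medians and differences changed sign. Members close to 0 did, since 71 rather than 67 were above 0 when scaled to non-members. The alternatives without *RpS20* and *RpS30*, without *RpS14a* and *RpS14b*, without small RNAs, with failed estimates and with other numbers of neighbours were chosen after seeing the data.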
